A study of Mus musculus with 6 samples.

Results

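The ligands of the tumor necrosis factor (TNF) superfamily described here are encoded by 10 genes, Lta, Ltb, Tnf, Tnfsf4, Tnfsf8, Tnfsf10, Tnfsf11, Tnfsf14, Fasl and Cd70, which were chosen by mouse gene symbol from the 55401 genes of a table of read counts. RNA had been sequenced from mouse T cells in culture, 3 samples with supernatant from control macrophages and 3 with supernatant from macrophages activated with NFL, the light chain of the neurofilaments that support axons. According to the design text, the T cells of all 6 samples were taken from spleen with beads against CD8a, and macrophage supernatant made up 50% of a culture medium with 2% fetal bovine serum. The macrophages of both groups came from CD11b-selected spleen cells grown for 7 days in 50 ng/mL M-CSF. For the NFL group they then received 5 µg/mL NFL for 24 h, in a preparation made by freezing and thawing a lysate of sciatic nerve. The labels and the design text do not name a strain, sex or age, and do not say whether samples of a group came from separate animals or cultures, so the spread between samples may be technical. The comparison asks whether supernatant from NFL-activated macrophages alters these ligand genes in T cells. What the macrophages released and any NFL preparation carried over in the supernatant cannot be told apart.

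TNF superfamily ligands are trimeric proteins, most of them made as membrane proteins, that signal by bringing receptor molecules together on a neighbouring cell. Lta encodes lymphotoxin-α, which is secreted as a homotrimer that binds the same receptors as TNF, or joins lymphotoxin-β, the product of Ltb, in a membrane complex that binds the lymphotoxin-β receptor. Activated lymphocytes are a main source of both lymphotoxins, which are known for their role in forming lymph nodes and other lymphoid tissue. Tnf encodes TNF-α, a central inflammatory cytokine. Fasl and Tnfsf10 encode the death ligands FasL and TRAIL, Tnfsf11 encodes RANKL, which drives osteoclast formation, and Tnfsf4, Tnfsf8, Tnfsf14 and Cd70 encode OX40L, CD30L, LIGHT and CD70, which act in costimulation.

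Lta, Tnf and Ltb lie side by side on chromosome 17, over a span of 10913 bases in the mouse major histocompatibility complex (GRCm38, chr17:35194439-35205351). Lta (ENSMUSG00000024402.5, 35203165 to 35205351) and Tnf (ENSMUSG00000024401.14, 35199381 to 35202007) are read from the minus strand with 1157 bases between them. Ltb (ENSMUSG00000024399.5, 35194439 to 35196320) is read from the plus strand, 3060 bases beyond the end of Tnf. The bases just before each start are shown because the 3 genes share a locus and their fold changes are compared here. They are from RefSeq windows of GRCm38.p6, 5′ to 3′ on the strand of the gene. They cover chr17:35205352-35205601 for Lta, chr17:35202008-35202257 for Tnf and chr17:35194257-35194438 for Ltb, and capitals mark matches to TATAAA or to the NF-κB consensus.

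Lta: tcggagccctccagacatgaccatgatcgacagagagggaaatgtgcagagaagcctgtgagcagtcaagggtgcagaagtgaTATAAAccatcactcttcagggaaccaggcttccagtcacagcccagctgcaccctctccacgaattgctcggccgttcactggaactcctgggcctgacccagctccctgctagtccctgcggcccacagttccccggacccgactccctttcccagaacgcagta
Tnf: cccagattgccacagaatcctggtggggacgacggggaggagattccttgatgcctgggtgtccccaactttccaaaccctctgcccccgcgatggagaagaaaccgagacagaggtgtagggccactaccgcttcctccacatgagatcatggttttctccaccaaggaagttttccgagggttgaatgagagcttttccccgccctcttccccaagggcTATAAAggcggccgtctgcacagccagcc
Ltb: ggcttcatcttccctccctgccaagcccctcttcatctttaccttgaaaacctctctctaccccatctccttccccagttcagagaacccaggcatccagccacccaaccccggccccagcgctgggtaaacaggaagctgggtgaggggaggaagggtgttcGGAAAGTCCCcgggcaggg

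Motifs were searched on both strands of the whole RefSeq windows, 250 bases before to 50 after the start, which were found for 8 of the 10 ligand genes. TATAAA was 29 bases before the start of Tnf and 167 bases before that of Lta. It also had a match on the other strand in the window of Tnfsf11, and 13.6% of 32851 mouse promoter windows hold it. The NF-κB consensus matched in the window of Ltb, on the minus strand at chr17:35194420-35194429, and in none of the other 7 windows, while 8.46% of all windows hold one. TGANTCA, the AP-1 motif, matched in the window of Tnfsf14 and in none of the other 7, against 7.81% of all windows. A match describes the letters of the window and is not a binding site, and these windows do not cover distal elements.

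The 3 transcripts also differ in their 3′ untranslated regions. AUUUA, the pentamer of AU-rich elements through which RNA-binding proteins shorten the life of cytokine mRNAs, occurs 8 times in the 764 bases of Tnf and 3 times in the 572 bases of Lta in GENCODE M21. Ltb has 0 in 156 bases. Of 20954 coding genes, 10.3% have at least 8 and 35.2% at least 3. In Tnf, 5 of the 8 fall within 27 bases (GRCm38, chr17:35199679-35199705, minus strand), printed as DNA with the pentamers in capitals.

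Tnf stretch: ATTTAttATTTATTTAttATTTATTTA

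The total count was 15843045 to 24639756 per library, so that 3 counts, taken as the detection floor, correspond to 0.122 to 0.188 CPM, the count scaled to library size after TMM normalization. The T-cell markers were uneven. Thy1 had 1575 to 1709 CPM and Cd3e 49.1 to 64.6 CPM, but Cd8a had 3.20 to 4.46 CPM and Cd8b1 0.870 to 1.57 CPM, below Cd4 at 23.3 to 27.6 CPM, although the cells are described as CD8-selected. Among the variable segments of T-cell receptor β genes, nearly all counts of every library fell on Trbv1, the lowest share being 99.869% (Wilson 95% interval 99.766% to 99.927%, counting error only). These values go against a polyclonal CD8 T-cell population from spleen, in which many such segments are in use, and a single clone or line was not tested, so the results below are those of the cells as sequenced. Of 7 macrophage markers, C1qa, C1qb and Cd14 were at 0 in every library and Lyz2 at 0.116 CPM or less, while Cd68 was at 18.9 to 27.2 CPM. Csf1r and Adgre1 were at 0.203 CPM or less. The macrophage list, nearly all of it Cd68, summed to 24.5 to 27.5 CPM in control and 19.2 to 23.4 CPM in NFL libraries. The B-cell list summed to 1.26 to 2.21 CPM with Ms4a1 and Ighm at 0. The dendritic cell list summed to 0.85 to 2.80 CPM with Flt3 at 0, and the erythroid list reached 0.244 CPM at most. In the natural killer list Ncr1 and Klra8 were at 0, and Klrb1c was 29.7 to 32.9 CPM in control and 22.0 to 22.7 CPM in NFL libraries. In bulk RNA, fewer cells of a type and less RNA per cell cannot be told apart.

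To see which ligands these T cells expressed, levels were first compared per length. Lta was by far the most abundant, at 384.5 ± 17.6 RPKM (CPM per kilobase of exon, SD, n = 3) with control supernatant. Tnf was at 51.4 ± 4.22 RPKM and Ltb at 4.63 ± 0.945 RPKM (SD, n = 3) in the same libraries. The order Lta, Tnf, Ltb held in every one of the 6 libraries. Fasl followed at 0.381 ± 0.169 RPKM, Tnfsf11 at 0.173 ± 0.0940 RPKM and Tnfsf10 at 0.164 ± 0.0382 RPKM (SD, n = 3), and neighbours in that order did not differ beyond their spread. With NFL supernatant Fasl was at 0.477 ± 0.0951 RPKM, above Tnfsf11 at 0.174 ± 0.0545 RPKM and Tnfsf10 at 0.0767 ± 0.0527 RPKM (SD, n = 3). The other 4 ligand genes had 3 counts or fewer in every library. Levels of all 10 genes are plotted by library.

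**Figure D1:**
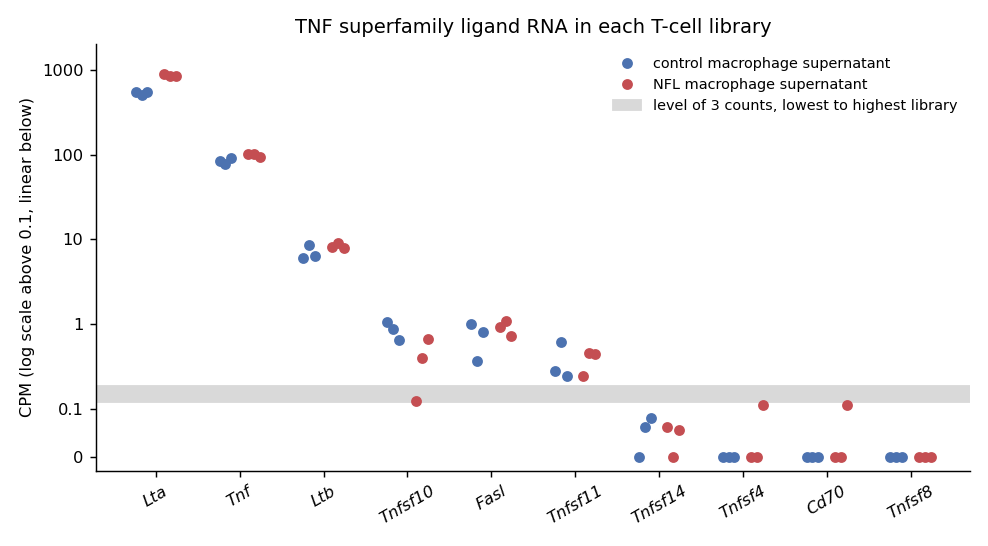
CPM of the 10 ligand genes in each library, on a scale that is logarithmic above 0.1 and linear below, with the 3 control libraries in blue and the 3 NFL libraries in red, and a grey band for the level of 3 counts (0.122 to 0.188 CPM). Lta lay at 504.4 to 879.6 CPM with the groups apart, Tnf at 77.3 to 101.6 CPM, Ltb at 6.01 to 9.01 CPM, and Tnfsf14, Tnfsf4, Cd70 and Tnfsf8 lay below the band.

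Of the 10 ligand genes, 5 had enough counts to be tested and 2 changed, Lta and Tnf, both higher with NFL-activated macrophage supernatant (edgeR quasi-likelihood test, adjusted p under 0.05 over all genes). Among all 14082 genes tested, 7.0% passed in either direction, 3.47% as higher and 3.53% as lower. The other 3 tested, Ltb, Fasl and Tnfsf10, did not pass. These genes and the gene lists below were chosen with earlier results of these data known. Their counts of calls therefore cannot be read as enrichment over the share of all genes. The log2 fold changes of the 5 ran from -1.06 to 0.68. Their median of 0.27 was the estimate of Fasl, which had a standard error of 0.42 (edgeR adjusted p = 0.81). The median of all genes tested was -0.001. Lta, Tnf and Ltb share a locus, and a shift of the ligand genes as a group cannot be read from this median. With library size in place of TMM scaling, the split of all calls moved from 489 higher and 497 lower to 372 higher and 600 lower, and Lta and Tnf stayed higher.

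Lta had the lowest p-value of any gene tested. It had 540.1, 504.4 and 550.8 CPM in the control libraries and 879.6, 841.2 and 838.4 CPM in the NFL libraries. The lowest NFL library stood well above the highest control library. The groups of 3 did not overlap, which was also so for 22.7% of all genes tested, 11.5% with the NFL group higher. Expression rose from 531.8 ± 24.3 to 853.0 ± 23.0 CPM (SD, n = 3), a 1.60-fold difference. On the log2 scale Lta was higher by 0.68 with a standard error of 0.030 (95% interval 0.62 to 0.74, edgeR adjusted p = 2.9e-24). By p-value Lta ranked 1 of 14082 genes. Permuting the 6 samples gave an exact two-sided p = 0.1 for Lta and for Tnf, the smallest that 3 against 3 can give.

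Lta combined a high level with a moderate fold change. By log2 fold change it was 191 of 14082, and by mean level it was 141. Of the 489 genes called higher, 40 had a fold at least that of Lta, itself included. At a level of 100 CPM or more, 276 genes were called higher and 3 of them, Lta included, had a fold that large. In CPM gained, 321.3, Lta was the third of all genes tested, and it made up 2.47% of the summed gain of the genes called higher. The raw counts behind these values were 8037 to 13455 in control and 14159 to 14801 in NFL libraries, so counting error was small beside the spread between samples.

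Tnf rose less. It had 84.0, 77.3 and 91.2 CPM in the control libraries and 101.6, 100.2 and 93.5 CPM in the NFL libraries. The groups did not overlap, but the highest control library came close to the lowest NFL library. The mean was 84.2 ± 6.93 CPM with control and 98.4 ± 4.33 CPM with NFL supernatant (SD, n = 3). This was a log2 fold change of 0.22 (95% interval 0.12 to 0.31, standard error 0.048, edgeR adjusted p = 0.0017). It ranked 281 of 14082 by p-value.

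Ltb, which supplies the membrane anchor of the lymphotoxin complex, was far lower than its partner. It had 6.01, 8.66 and 6.39 CPM in the control libraries and 8.20, 9.01 and 7.99 CPM in the NFL libraries. Control replicate 2 lay among the NFL libraries, so the groups overlapped. The log2 fold change of Ltb was 0.28 (standard error 0.14, 95% interval -0.001 to 0.57, edgeR adjusted p = 0.26). Without control replicate 2 it was 0.44 with an adjusted p of 0.0495 in edgeR, so that 1 library decided the call. The interval takes in no change as well as a fold as large as that of Tnf.

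**Figure D2:**
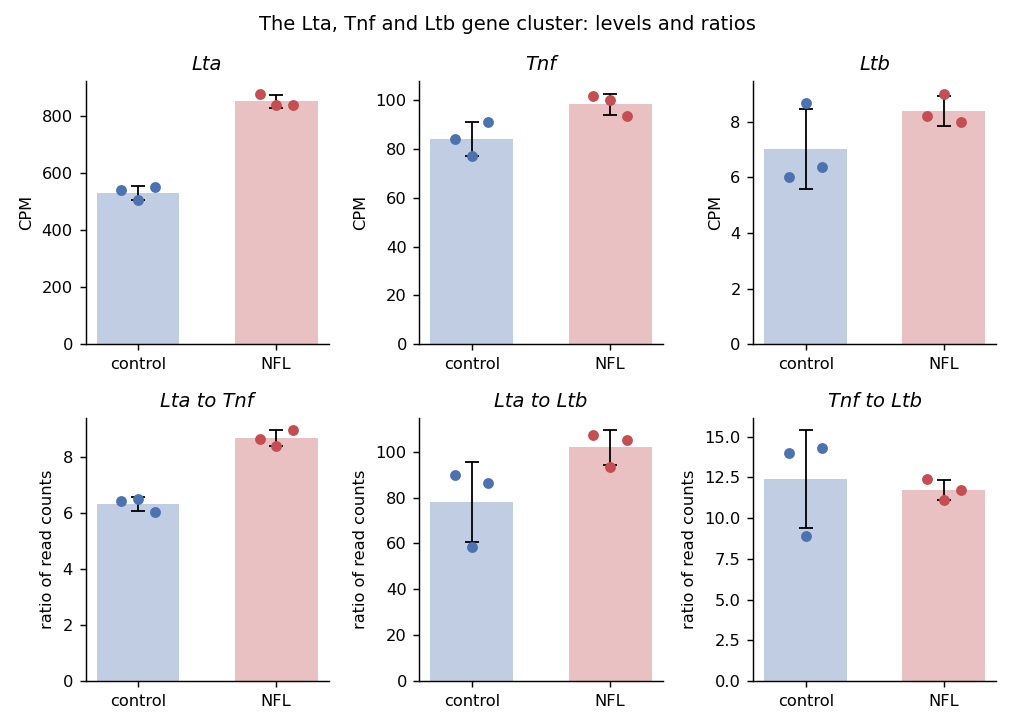
Bars give the mean, error bars the SD and points the 3 libraries of each group, for the level of Lta, Tnf and Ltb in CPM (top) and for the ratios between their read counts (bottom), with all axes from 0. Lta and Tnf did not overlap between groups, Ltb did, and the ratio of Lta to Tnf rose from 6.04 to 6.52 in control libraries to 8.40 to 8.97 in NFL libraries.

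The 3 genes of the cluster were then compared within each library, because a ratio of counts in a library does not depend on how the libraries are scaled. There were 6.43, 6.52 and 6.04 Lta counts for each Tnf count in the control libraries and 8.66, 8.40 and 8.97 in the NFL libraries. The groups did not overlap, and the mean log2 ratio was higher by 0.46 with NFL supernatant (SD 0.059 in control and 0.048 in NFL, exact two-sided permutation p = 0.1, adjusted over 3 ratios 0.15). A p of 0.1 is the smallest this design allows, and the difference was larger than the spread within either group. Lta to Ltb was 89.8, 58.2 and 86.3 in control and 107.3, 93.3 and 105.0 in NFL libraries, a log2 difference of 0.41 (exact permutation p = 0.1, adjusted 0.15) that was 0.21 without control replicate 2. Tnf to Ltb was 13.97, 8.93 and 14.3 in control and 12.4, 11.1 and 11.7 in NFL libraries, a log2 difference of -0.05 whose sign turned when control replicate 1 (0.05) or control replicate 3 (0.07) was left out (exact permutation p = 1.0 over all 6 libraries). The share of Lta in the ligand RNA was higher in all 3 NFL libraries. Per length, Lta made up 86.8% to 87.5% of the summed ligand RNA in control libraries and 90.0% to 90.5% in NFL libraries. Tnf made up 11.3% to 12.1% and 8.52% to 9.04%, and Ltb 0.888% to 1.37% and 0.768% to 0.879%.

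The death ligands were near the limit of detection. Tnfsf10 (TRAIL, ENSMUSG00000039304.11, chr3:27317028-27342427) had 26, 14 and 16 counts in the control libraries and 2, 7 and 12 in the NFL libraries, or 1.06, 0.879 and 0.655 CPM against 0.124, 0.407 and 0.680 CPM. NFL replicate 3 lay among the controls. Tnfsf10 passed the filter on low counts through its control libraries. Its log2 fold change was -1.06 with a wide interval (standard error 0.49, 95% interval -2.04 to -0.08, edgeR adjusted p = 0.21). Fasl (ENSMUSG00000000817.10, chr1:161780689-161788495) had 25, 6 and 20 counts with control and 15, 19 and 13 with NFL supernatant. Its log2 fold change of 0.27 (95% interval -0.57 to 1.10, edgeR adjusted p = 0.81) does not settle the direction of any change at this depth.

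The remaining ligands had too few counts for a test. Tnfsf11 (RANKL, chr14:78277445-78308043) had 7, 10 and 6 counts in control and 4, 8 and 8 in NFL libraries, at 0.386 ± 0.210 and 0.389 ± 0.122 CPM (SD, n = 3). Tnfsf14 (LIGHT, chr17:57189492-57194177) had 0, 1 and 2 counts against 1, 0 and 1. Tnfsf4 (OX40L, chr1:161395409-161418410) and Cd70 (chr17:57145997-57149777) each had 2 counts in NFL replicate 3 and 0 elsewhere. Tnfsf8 (CD30L, chr4:63831308-63861347) had 0 counts in every library, which allows up to 0.122 to 0.188 CPM. No difference between groups was detectable for these 5 genes.

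Further members of the ligand family were looked at alongside. Of 8 other TNF superfamily ligands, 3 could be tested and 0 passed (edgeR, with 0 at an unadjusted p under 0.05, 0 with DESeq2 and 0 with limma-voom). With 7.0% of all genes tested called, a count of 0 among 3 does not set them apart. Tnfsf9, which encodes 4-1BB ligand, was at 9.995 ± 0.770 CPM in control and 10.1 ± 1.12 CPM in NFL libraries (SD, n = 3). Tnfsf13b, which encodes the B-cell factor BAFF, was at 9.53 ± 0.913 and 8.57 ± 1.22 CPM (SD, n = 3). Eda, which encodes ectodysplasin, was at 1.54 ± 0.190 and 1.73 ± 0.168 CPM (SD, n = 3). Cd40lg, the CD40 ligand of helper T cells, was named after its values were seen and had 0 counts in every library, as did Tnfsf15 and Tnfsf18.

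Whether the rise of Lta and Tnf extended along the chromosome was examined next. The annotation places 28 further genes within 100 kb of the cluster, of which 19 were tested and 0 changed in edgeR (5 at an unadjusted p under 0.05, 0 with DESeq2 and 0 with limma-voom). Against the background of 7.0% called, and of 2711 of 14082 genes at an unadjusted p under 0.05, these counts do not set the neighbours apart. Their median log2 fold change was -0.01. The most abundant were the class I gene H2-D1 (856.5 ± 26.0 and 897.5 ± 14.3 CPM, log2 fold change 0.07), Prrc2a (531.8 ± 27.8 and 527.5 ± 5.02 CPM, -0.01) and Ddx39b, which encodes an RNA helicase (327.9 ± 2.45 and 346.0 ± 1.54 CPM, 0.08), each SD with n = 3. Bag6, which encodes a chaperone, came next, with a log2 fold change of -0.04. The groups did not overlap for 4 of the 19, against 22.7% of all genes tested. H2-D1 and Ddx39b were higher (edgeR adjusted p = 0.14 and 0.11), and Abhd16a (log2 fold change -0.16, edgeR adjusted p = 0.14) and Ncr3-ps (-0.52, adjusted p = 0.47) were lower with NFL supernatant. The remaining genes under an unadjusted p of 0.05 were D17H6S53E (-0.20, edgeR adjusted p = 0.20) and Nfkbil1, and these and the 2 lower genes were named after their values were seen. Nfkbil1 had a log2 fold change of 0.28 (95% interval 0.04 to 0.52, edgeR adjusted p = 0.17) and passed when NFL replicate 1 was left out (0.41, adjusted p = 0.0468). The intervals of Prrc2a, H2-D1 and Ddx39b end at or below 0.14, short of the interval of Lta, which begins at 0.62. Some neighbours at low levels had wider intervals that take in that of Lta, so a rise of that size was not resolved for them. These were Gm20522 (0.58, 95% interval -0.29 to 1.45), Aif1 (0.42, -0.14 to 0.99) and Gm17705 (0.09, -0.61 to 0.78), named after their values were seen. The interval of Tnf begins at 0.12, which the intervals of H2-D1 and Ddx39b reach, and Nfkbil1 had a larger estimate than Tnf. The microRNA gene Mir6974 overlaps Lta and had 0 counts, and Mir6973a overlaps Ltb and had at most 6.

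**Figure D3:**
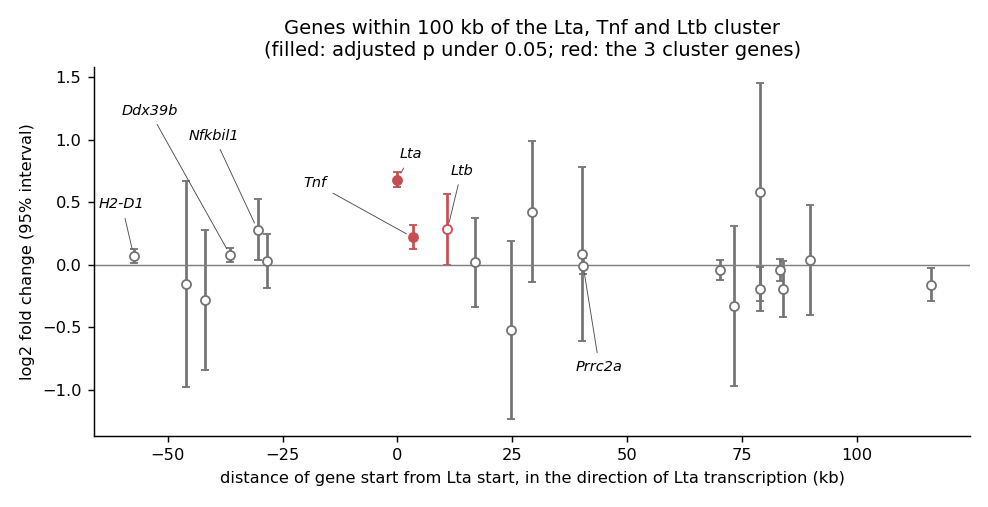
Log2 fold change with its 95% interval, NFL against control, for the 3 cluster genes (red) and the 19 tested genes within 100 kb (grey), placed by the distance of each gene's start from the start of Lta in kb. Filled points passed the threshold, which Lta (0.68) and Tnf (0.22) did and the 19 neighbours did not.

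The receptors of the ligands were tested as a list of 13, of which 9 could be tested and 2 changed, both higher. The background of genes called higher was 3.47%. Tnfrsf11b encodes osteoprotegerin, a secreted decoy that binds RANKL and TRAIL. It had 70.5, 73.9 and 71.9 CPM in control and 99.8, 105.3 and 100.3 CPM in NFL libraries, with no overlap between the groups. Tnfrsf11b was higher by 0.50 on the log2 scale (SE 0.045, edgeR adjusted p = 2.5e-12). Its ligands Tnfsf11 and Tnfsf10 had at most 10 and 26 counts in any library. Tnfrsf8 encodes CD30, the receptor of the ligand that was at 0 in every library. It had 58.8, 62.3 and 58.1 CPM in control and 69.5, 73.4 and 71.6 CPM in NFL libraries, also apart. Groups were apart for 22.7% of all genes tested. Tnfrsf8 was higher by 0.26 on the log2 scale (SE 0.051, edgeR adjusted p = 2.8e-04).

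The receptors of TNF and of the lymphotoxin-α homotrimer did not pass the test. Tnfrsf1b, the receptor prominent on lymphocytes, was at 41.2 ± 1.71 CPM in control and 43.5 ± 2.47 CPM in NFL libraries (SD, n = 3), a log2 fold change of 0.08 (95% interval -0.05 to 0.20, edgeR adjusted p = 0.55). Tnfrsf1a, the receptor with a death domain, was at 17.1 ± 0.446 and 14.6 ± 0.991 CPM (SD, n = 3), a log2 fold change of -0.22 (95% interval -0.41 to -0.03, edgeR adjusted p = 0.18). For Tnfrsf1a the groups did not overlap, which was also so for 22.7% of all genes tested. Tnfrsf23, a decoy receptor for TRAIL, had a log2 fold change of -0.14, and Tnfrsf14, the LIGHT receptor HVEM, had one of 0.17, neither past the threshold. A few receptors were named after their values were seen because their ligands are described above. Ltbr, which encodes the lymphotoxin-β receptor, reached 0.116 CPM at most, Tnfrsf11a, which encodes RANK, reached 0.205 CPM, and Fas had 0 counts in every library. The median log2 fold change of the 9 receptor genes tested was 0.08. The fold changes of ligands and receptors are plotted together.

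**Figure D4:**
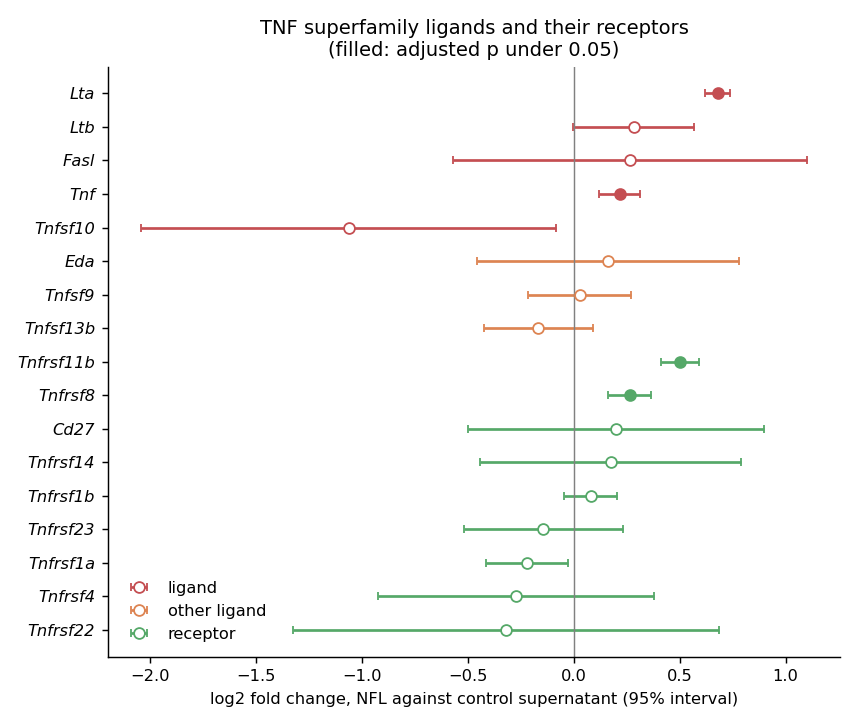
Log2 fold change with its 95% interval, NFL against control supernatant, for the 5 ligand genes tested (red), 3 other ligands (orange) and 9 receptors (green). Filled points passed the threshold, which were Lta (0.68), Tnf (0.22), Tnfrsf11b (0.50) and Tnfrsf8 (0.26).

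Of the genes that process the ligand proteins, none tested passed. Membrane-bound TNF is cut free by ADAM17, which needs the rhomboid-like proteins of Rhbdf1 and Rhbdf2, and the stub left behind is cleaved by SPPL2 proteases. Of 7 such genes, 5 were tested and 0 passed (edgeR, with 0 at an unadjusted p under 0.05, 0 with DESeq2 and 0 with limma-voom), with log2 fold changes from -0.04 to 0.06 and a median of 0.01. Among all 14082 genes tested, 7.0% passed and 2711 were at an unadjusted p under 0.05. So few genes cannot be set apart from that background. Adam17 was at 88.3 ± 3.30 CPM in control and 86.7 ± 2.29 CPM in NFL libraries, and Adam10, a related protease that cuts FasL, at 247.2 ± 8.13 and 239.5 ± 4.004 CPM (SD, n = 3). Sppl2a was at 297.0 ± 1.26 and 309.7 ± 1.87 CPM and Rhbdf2 at 46.4 ± 1.27 and 46.9 ± 3.59 CPM (SD, n = 3). For Sppl2a the groups did not overlap (edgeR adjusted p = 0.26), which was also so for 22.7% of all genes tested.

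Among the RNA-binding proteins that act on cytokine mRNAs, 8 genes were tested and 1 changed, Zfp36l2, which fell. The background of genes called lower was 3.53%. ZFP36L2 belongs to the tristetraprolin family, which binds the AU-rich elements shown above for Tnf and promotes decay. Zfp36l2 had 308.9, 322.8 and 304.5 CPM in control and 277.1, 277.2 and 269.0 CPM in NFL libraries, with no overlap. On the log2 scale it fell by 0.18 (SE 0.031, edgeR adjusted p = 4e-05). The related Zfp36l1 had a log2 fold change of 0.12 (edgeR adjusted p = 0.11) and passed when control replicate 2 was left out (0.16, adjusted p = 0.00898). Zfp36l1, Zc3h12a and Zfp36 fall outside the rule for named genes and were named after their values were seen. Zc3h12a, which encodes the RNase regnase-1, had the highest log2 fold change of the list at 0.34 (edgeR adjusted p = 0.092). Zfp36, the tristetraprolin gene itself, had the lowest at -0.28 (edgeR adjusted p = 0.48). The groups did not overlap for either, nor for Zfp36l2, which was also so for 22.7% of all genes tested. Elavl1, Rc3h1 and Rc3h2, which encode HuR and the roquins, were among the most abundant of the list, with log2 fold changes of -0.04, -0.02 and 0.03. Tia1, next by level, had a log2 fold change of 0.02.

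Genes whose level followed that of Lta over the 6 libraries were ranked by Pearson's r of log2 CPM among 11264 genes. These had a log2 of the mean CPM of 1 or more and counts in every library, and the ligand genes were left out. The r values are descriptions of 6 points that fall into 2 groups, and 441 genes had r of at least 0.9. The 5 highest were Bcl10 (0.998), D10Wsu102e (0.997), H2-Aa (0.997), H2-K1 (0.997) and Dis3 (0.996). Of these, H2-Aa, which encodes the α chain of a class II histocompatibility molecule, differed most, from 39.6 ± 2.52 to 73.3 ± 2.74 CPM (SD, n = 3, log2 fold change 0.88, edgeR adjusted p = 9.6e-18). H2-K1, which encodes a class I heavy chain, went from 833.2 ± 14.1 to 974.1 ± 10.1 CPM (SD, n = 3, log2 fold change 0.23, edgeR adjusted p = 1.1e-08). Bcl10, an adaptor in antigen receptor signalling, was at 39.3 ± 0.432 and 44.4 ± 0.183 CPM (SD, n = 3) and missed the threshold (log2 fold change 0.18, edgeR adjusted p = 0.066).

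Of the cell type markers, those past the threshold were Cd3e, Klrb1c and Cd68. Tested were 7 T-cell markers and 1 gene each of the macrophage, natural killer, B-cell and dendritic cell lists. Among all genes tested 7.0% were called, 3.53% as lower, and so few markers cannot be set apart from that background. Cd3e, a T-cell receptor subunit and the only one of 7 T-cell markers called, was lower in all 3 NFL libraries (log2 fold change -0.28, edgeR adjusted p = 5.7e-04). Thy1 had a log2 fold change of -0.05 (edgeR adjusted p = 0.28), Cd3g one of -0.21, Cd3d one of 0.17 and Cd4 one of 0.05. For Cd8a it was -0.135 (edgeR adjusted p = 0.79) and for Cd8b1 -0.40 (adjusted p = 0.60), the lowest of the list. The median of the 7 T-cell markers was -0.135. Klrb1c, a natural killer receptor gene, was lower as well (-0.51, edgeR adjusted p = 2.4e-06). Cd68 was just past the threshold as lower (-0.26, edgeR adjusted p = 0.049), a call that 7 of 14 other settings did not make. Their part in the change of Lta and Tnf was not tested.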

How the data were processed

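RNA of T cells, 3 samples per supernatant, had been poly(A)-selected and sequenced on an Illumina instrument. The authors deposited raw counts per gene, 1 column per sample, with neither scaling nor pooling, and 0 columns lacked a sample. The submitters' processing notes list GRCm39, R 4.2.1 and limma 3.54.2 without a role. Of the identifiers, 54349 (98.1%) equal those of GENCODE M21, whose GRCm38 positions and exon lengths are used. Aligner, counting program and strand setting are not given in the sources used here, and neither is a batch. The paper's methods for co-culture and the design text differ in NFL concentration. They also differ in its source. The paper's animal methods name a purchased NFL and give nerve lysate as a separate treatment, whereas the design text describes a nerve lysate preparation.

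Counts were tested in R 4.3.3 with edgeR 4.0.16 (TMM, filterByExpr with minimum count 10 and minimum total 15, glmQLFit and glmQLFTest on group, Benjamini-Hochberg over 14082 genes, threshold 0.05), and the fit was checked on simulated counts. The common biological coefficient of variation was 3.48%. RPKM is CPM per kilobase of merged exons. Exact permutation tests were run with scipy 1.17.1. Alternatives were DESeq2's size factors, scaling by library size, testing without a filter, at least 10 counts in every sample, the DESeq2 1.42.0 Wald test, limma-voom (limma 3.58.1), a replicate block, thinning to the smallest library, and leaving out each replicate. Named genes are the 10 ligands, every list gene past the threshold, up to 4 further per list by level, and the 5 genes most like Lta. The ligands and lists were chosen with earlier results of these data known.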

Additional observations from a re-analysis of the deposited data

How the results depend on the processing

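Lta stayed higher and past the threshold in all 14 alternatives (log2 fold change 0.65 to 0.70, highest adjusted p = 1.26e-16), and so did Tnf (0.17 to 0.28, highest adjusted p = 0.0236). Ltb ranged from 0.18 to 0.44 when a replicate was left out and passed without control replicate 2 (0.44, adjusted p = 0.0495), which made 3 ligand genes called. Tnfsf10 ranged from -1.66 to -0.66 and Fasl from 0.01 to 0.56, with no call, and neither was tested at 10 counts in every sample. The count over all genes, 986, ranged from 508 (without NFL replicate 3) to 966 when a replicate was left out, with 616 without NFL replicate 2, and from 731 to 1049 under the other settings. The decay list had 2 genes after thinning, where Zc3h12a was added (0.45, adjusted p = 0.029), and 1 to 2 when a replicate was left out. The genes within 100 kb had 0 to 1, and the log2 ratio of Tnf to Ltb ranged from -0.27 to 0.07, with 0.05 without control replicate 1 and 0.07 without control replicate 3. That of Lta to Ltb kept its sign (0.21 to 0.52). After thinning, the Lta to Ltb difference was 0.34 with an exact two-sided permutation p of 0.2, against 0.1 without thinning. Dis3 lost its call without NFL replicate 3 (adjusted p = 0.0642). A replicate block gave 1049 genes and the same 2 ligand genes. Samples with the same number did not deviate together (correlation 0.007 to 0.015), although each correlated best with its own number. The causes were not tested. Depth limits the 7 ligand genes below Ltb, for which no difference was called.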
